A study of Mus musculus with 2 samples.

Results

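The integrin and laminin genes of MEFs (mouse embryonic fibroblasts, the connective tissue cells of embryos taken into culture) were compared between RNA labelled Lats2 knockout (KO) and RNA labelled wild type (WT). The genes were taken by name, as every integrin α gene, the integrin β genes and the laminin α, β and γ genes that an Agilent whole mouse genome array carries under these symbols. They came to 35 of the 27745 gene names on the array and were measured by 78 of its 41174 probes. Of these 35 genes, 25 encode integrins and 10 encode laminin chains.

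The labels describe embryonic fibroblasts of C57BL/6J mice with the genotypes LAT2-/- and LAT2+/+, which the titles spell LATS2-/- and LATS2+/+, without any treatment. The age of the embryos, the allele and the number of embryos behind each RNA were not given in the sources used here. Both RNAs were hybridised together on each of 2 arrays. On the first array the KO RNA carried the red dye Cy5 and the WT RNA the green dye Cy3, and on the second array the dyes were exchanged. The labels name no further sample of either genotype. The study's own text speaks of several independent cell lines, and which of them these RNAs came from was not given in the sources used here. The arrays were read as a repeat of 1 pair of RNAs with the dyes exchanged, that is 1 replicate of each genotype. Differences between the genotypes therefore have no replicate check and no test was made between them. All ratios are given as log2 of KO over WT, on each array and as the mean of both. The spread between the arrays covers hybridisation and dye error only. For a single probe well above background in both genotypes its SD was 0.137 on the log2 scale (0.0968 for the mean of both arrays). Over the 43 integrin and laminin probes among these it was larger, at 0.182 (0.129 for the mean of both arrays). The SD used below is the one over all such probes, 0.137.

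Lats2, the gene targeted in the KO, was higher in the RNA labelled KO with 3 of its 4 probes. Their log2 ratios were 0.56, 0.56 and 0.63, whereas the probe farthest upstream had a ratio of -0.35. Which part of the gene the KO allele lacks was not given in the sources used here, and a probe outside that part would not check the label. The RNAs are named by their labels only and every direction below rests on those labels. All 9 fibroblast markers with a usable probe were well above background with the WT label on both arrays, and 8 of them also with the KO label. Their log2 ratios lay between -1.19 (Fbn1) and 0.00 (Col1a2) with a median of -0.45, and their summed normalised intensity was 107889 and 97822 in the RNA labelled KO against 133915 and 143577 in the RNA labelled WT. The part of this lower level of the fibroblast markers in the results below was not tested. No spot on either array was saturated.

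Integrins are receptors at the cell surface that hold cells to the extracellular matrix, and each is a pair of 1 α and 1 β subunit. The α subunit sets much of the choice of ligand, and the receptors fall into those for laminin, for collagen, for ligands with the short peptide motif RGD (arginine, glycine, aspartate), and for leukocyte ligands. Laminins are large secreted trimers of an α, a β and a γ chain that assemble into basement membranes, where integrins and dystroglycan bind them mainly through the α chain. Fibroblasts are known to carry many β1 integrins and αv integrins. The Lats kinases belong to the Hippo pathway and restrain the coactivators YAP and TAZ, which act on DNA through TEAD factors, and matrix adhesion through integrins is one of the inputs to that pathway.

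Because TEAD factors carry the output of the Lats kinases, the 250 bases upstream of the transcription start were read for the TEAD motif (GGAATG on either strand). The reference sequences (RefSeq, GRCm38.p6) held 25 promoters of 22 of the integrin and laminin genes. The motif was in 3 of these promoters (12%), those of Itga10, Itgb1 and Lamb3, against 12.6% of all 32851 promoter windows of this length. The AP-1 motif (TGANTCA, either strand), which often lies near TEAD sites, was in the promoter of Itgax alone, 4% of the 25 promoters against 6.75% of all. Among the genes described below as differing at least 2-fold, Lama2, Itga8, Itga4 and Itga9 had a promoter in the table, and no match of either motif lay in those windows. A match is a match of letters and says nothing of binding. The windows of Lama2, which had the highest ratio of all the members, of Itga8, which was lower, and of Itgb1, which stayed within the spread between the arrays at its brightest probe and holds the motif, are shown 5′ to 3′ on the strand of the gene, with the match to the TEAD motif in capitals.
Lama2 (chr10:27616943-27617192, minus strand): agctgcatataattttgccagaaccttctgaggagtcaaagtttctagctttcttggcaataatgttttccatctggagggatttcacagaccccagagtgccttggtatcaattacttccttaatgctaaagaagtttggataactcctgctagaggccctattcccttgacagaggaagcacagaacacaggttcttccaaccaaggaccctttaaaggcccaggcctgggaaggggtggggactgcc
Itga8 (chr2:12301945-12302194, minus strand): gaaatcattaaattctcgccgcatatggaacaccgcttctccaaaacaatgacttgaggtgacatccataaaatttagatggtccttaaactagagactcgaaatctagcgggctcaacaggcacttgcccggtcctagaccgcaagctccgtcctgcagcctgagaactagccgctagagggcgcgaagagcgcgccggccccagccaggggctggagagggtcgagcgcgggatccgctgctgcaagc
Itgb1 (chr8:128685404-128685653, plus strand): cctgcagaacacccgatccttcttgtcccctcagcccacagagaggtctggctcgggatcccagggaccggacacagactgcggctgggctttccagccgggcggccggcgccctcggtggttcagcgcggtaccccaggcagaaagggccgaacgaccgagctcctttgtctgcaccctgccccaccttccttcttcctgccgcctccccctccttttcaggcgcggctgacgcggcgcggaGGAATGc
The Lama2 window had a GC content of 47.2%, below the median of 52.4% of all windows, whereas those of Itga8 (56.4%) and Itgb1 (68%) lay above it.

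A gene was called when both arrays gave a ratio of at least 2-fold with the same sign and the RNA with the higher level had a signal well above background on both. Where several probes measured a gene, the brightest stood for it. Of the 35 genes, 34 had a usable value on both arrays and 24 were well above background on both arrays in at least 1 of the RNAs. Among those 24 genes, 2 were called higher in the RNA labelled KO (8.33%, against 2.95% of the 15877 genes of the array well above background). Another 4 were called lower (16.7%, against 2.61% of all genes), and 18 were not called. The higher genes were Lama2 and Itga9, and the lower genes were Itgb3, Lama4, Itga8 and Itga4. The median log2 ratio was -0.10 over the 24 genes and 0.00 over all genes, so the list as a group lay close to the centre of the array. The members stood wider around it, with a median size of the log2 ratio of 0.44 against 0.23 for all genes. This width was not particular to them. The same median was 0.57 for the genes that work with integrins and laminins, described further below, and 0.45 for the fibroblast markers. Taking 2 times the SD of a single probe (0.274) as the limit, 5 members were higher and 11 were lower. How many of all genes pass this limit was not counted, and the median size of 0.23 over all genes lies not far below it. These 2 counts are therefore not a trait of the members.

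**Figure D1:**
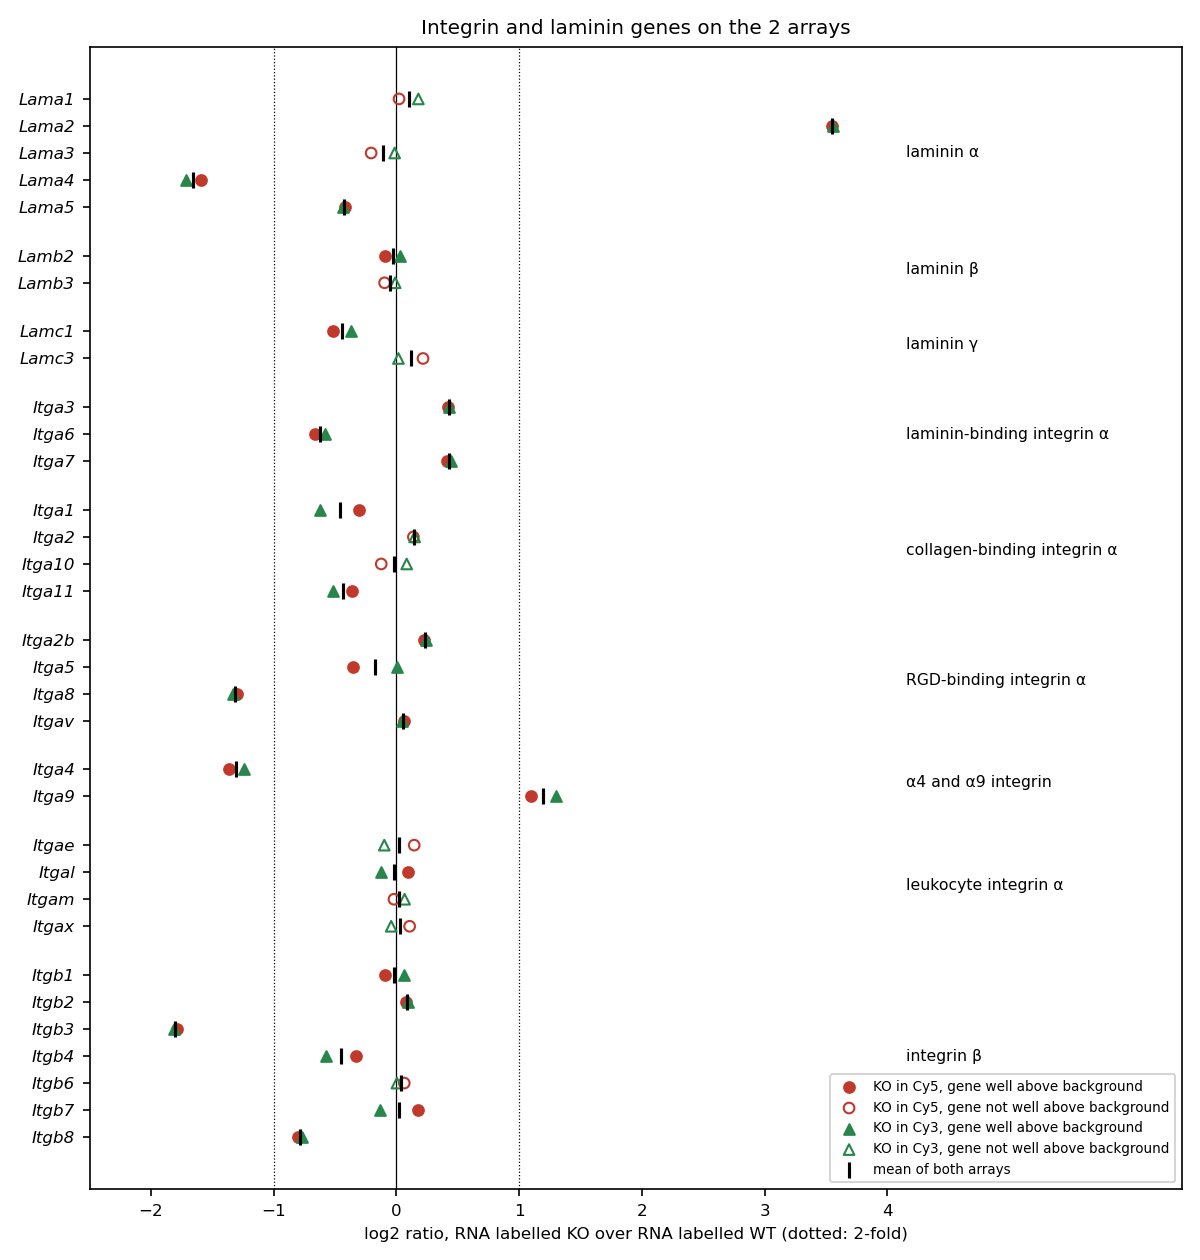
Log2 ratio of KO over WT of the integrin and laminin genes reported here that had a usable probe, grouped by role, on the array with KO in Cy5 (circles) and with KO in Cy3 (triangles), with the mean of both as a bar; open symbols are genes not well above background in either RNA. Lama2 stands far to the right at 3.55 on average, Itga9 passes the 2-fold line on each array, and Itgb3, Lama4, Itga8 and Itga4 lie left of the line on each array.

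Of the laminin α chains, Lama2 was 11.7-fold higher in the RNA labelled KO and Lama4 was lower, at 31.8% of the WT level. Lama2 encodes the α2 chain, which is best known from the basement membrane around muscle fibres and Schwann cells and is made by mesenchymal cells. Its brightest probe lies on chromosome 10, positions 26673839 to 26673898, minus strand (coordinates of probes are those of the array files, NCBI36/mm8, and their place in exons was not analysed here). The normalised intensity of Lama2 (log2) was 11.05 in the RNA labelled KO and 7.51 in the RNA labelled WT on the array with KO in Cy5, and 10.98 and 7.42 on the array with KO in Cy3. Thus the RNA labelled KO was higher on each array, by 3.55 log2 units both times, and the Lama2 ratio ranked 23rd from the highest of the 15877 genes.

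The Lama2 probe was spotted 10 times on each array. The ratios of its single spots ran from 3.42 to 3.71 on the first array (SD 0.0771) and from 3.51 to 3.61 on the second (SD 0.0398), so each spot lay far above the 2-fold line. A second Lama2 probe, on 26680324 to 26682334, gave 2.83 and 3.33. The remaining probe, far upstream at 27164783 to 27164842, was not well above background and gave 0.32 and -0.14. The mean over all Lama2 probes was 2.24, and with the ratio that the scanner software Feature Extraction computed itself, Lama2 was at 4.20.

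Lama4 encodes the α4 chain, which is typical of vascular and mesenchymal laminins. Its brightest probe (chromosome 10, 38795404 to 38795463, plus strand) had a log2 intensity of 9.52 in the RNA labelled KO and 11.12 in the RNA labelled WT with KO in Cy5, and of 9.48 and 11.20 with KO in Cy3. Lama4 was lower in the RNA labelled KO on each array, with log2 ratios of -1.59 and -1.72 and a mean of -1.65. A probe that overlaps it was at -1.55 and another, which starts upstream at 38784413, was at -1.37, and both met the call by themselves. The fourth probe, at 38743584, was above background with the WT label only and had a ratio of -0.16. Hence the α2 and α4 chain transcripts differed in opposite directions between the same RNAs.

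The other laminin chains differed less. Lama5, the widespread α5 chain of epithelial and vascular basement membranes, was not called, at -0.42 and -0.44 (mean -0.43). Lamc1, the γ1 chain that is part of most laminins, was not called either, at -0.51 and -0.37 (mean -0.44). Lamb2, the β2 chain, was at -0.09 and 0.03, within the spread between the arrays. Lama1, Lama3, Lamb3 and Lamc3 were not above background on both arrays with either label. The β1 chain gene is named Lamb1-1 on the array and so lay outside the names taken. It was well above background, with log2 ratios of 0.97 and 0.74 and a mean of 0.85. Over the 6 laminin genes well above background the median log2 ratio was -0.23, and it was -0.031 when Lamb1-1 was counted with them, which was tried only once the values were known. Of the chains that form the α2, β1 and γ1 laminin, α2 was called higher, β1 reached 1.81-fold, and γ1 stood at 73.5% of the WT level.

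**Figure D2:**
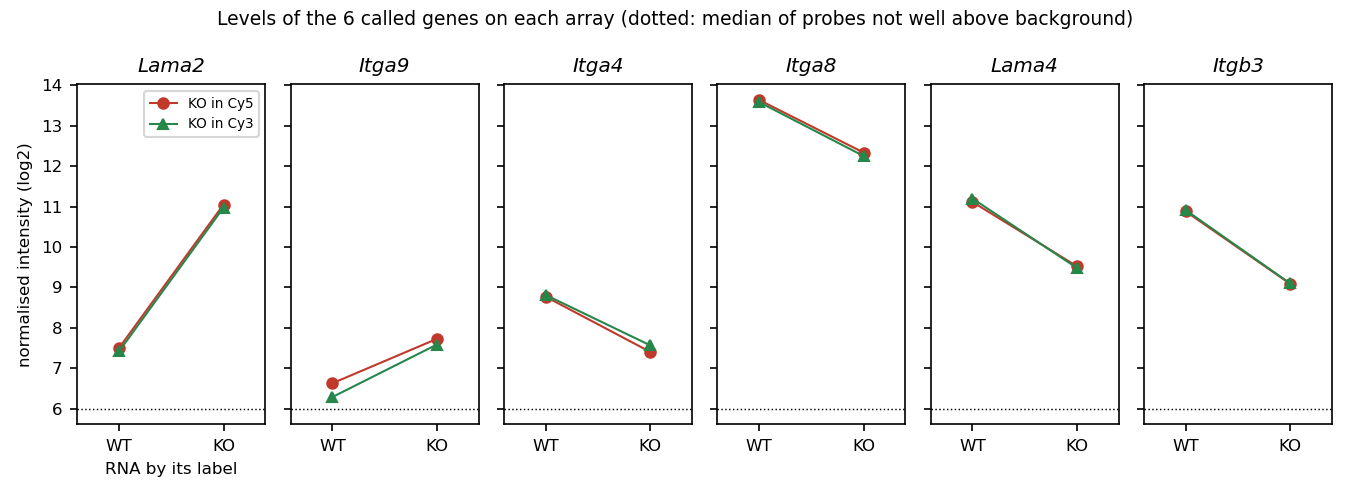
Normalised intensity (log2) of the 6 called genes in the RNAs labelled WT and KO, joined within each array (circles, KO in Cy5; triangles, KO in Cy3), with the median of probes not well above background (6.00) as a dotted line. The lines of both arrays run nearly together for each gene; Lama2 and Itga9 are higher with the KO label and Itga4, Itga8, Lama4 and Itgb3 lower.

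The laminin-binding integrin α subunits were all well above background and none was called. Itga6, which pairs with β1 or β4, was at -0.67 and -0.58 (mean -0.62), and its 2 other probes were at -0.22 and -0.24. Itga3 was higher at 0.42 and 0.43 (mean 0.43), with other probes at 0.38 and -0.03. With the Feature Extraction ratio it was at 0.95. Itga7, the laminin receptor known best from muscle, was higher at 0.41 and 0.44 (mean 0.43), and its second probe was at 0.56. Itgb4, the β subunit that pairs with α6 alone and anchors epithelial hemidesmosomes, was at -0.33 and -0.57 (mean -0.45), and a probe overlapping the same stretch was at -0.47. Thus α6 and β4 lay below 0 and α3 and α7 above it, each further from 0 than the SD between the arrays and short of 2-fold.

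Both collagen receptors that were measured lay below 0. Itga11, the collagen receptor of fibroblasts, was at -0.36 and -0.52 (mean -0.44). Itga1 was at -0.30 and -0.62 (mean -0.46), with its 2 other probes at -0.41 and -0.19. Itga2 and Itga10 were not well above background. No collagen receptor was called.

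Among the RGD-binding integrins, Itga8 and Itgb3 were lower in the RNA labelled KO, whereas Itga5 and Itgav lay near 0. Itga8 encodes the receptor for nephronectin that is needed for kidney development and is found on mesenchymal and smooth muscle cells. At its brightest probe (chromosome 2, 12024688 to 12024747, minus strand), the log2 intensity was 12.34 in the RNA labelled KO and 13.64 in the RNA labelled WT with KO in Cy5, and 12.25 and 13.58 with KO in Cy3. The ratios were -1.30 and -1.33 (mean -1.32), which left 40.1% of the WT level. The other Itga8 probes were also lower, at -1.22 in the same end of the gene and -0.65 at 12073365 to 12078215. Nephronectin (Npnt) itself was not called and was well above background only in the RNA labelled WT.

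Itgb3 encodes the β3 subunit, which pairs with αv in mesenchymal cells and with αIIb on platelets. Its brightest probe (chromosome 11, 104486448 to 104486507, plus strand) had a log2 intensity of 9.09 in the RNA labelled KO and 10.88 in the RNA labelled WT with KO in Cy5, and of 9.10 and 10.91 with KO in Cy3. Ratios of -1.79 and -1.81 (mean -1.80) put Itgb3 at 28.7% of the WT level, the lowest ratio among the members and the 94th from the lowest of all genes. The second Itgb3 probe, upstream at 104483266 to 104483336, did not return the same value when the dyes were exchanged. It was at 0.43 with KO in Cy5 and at -0.73 with KO in Cy3, and its mean was -0.15. The call of Itgb3 thus rested on its brightest probe, and the mean over both probes was -0.98, which fell short of the call on the first array (-0.68).

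The α partners of β3 were not called. Itgav, the αv subunit, was at 0.06 and 0.04 (mean 0.05), and its 3 other probes well above background lay between -0.09 and 0.31. Itga2b, the platelet subunit αIIb, was dim and stood at 0.23 and 0.24, within 2 times the SD between the arrays, but at 0.92 with the Feature Extraction ratio. Itga5, the fibronectin receptor subunit, was at -0.35 and 0.00 (mean -0.18). Itgb8, another partner of αv that activates latent TGF-β, was lower at -0.80 and -0.77 (mean -0.78), or 58.1% of the WT level. It was the lower gene nearest to the 2-fold line outside the calls, and with the Feature Extraction ratio it was called. Itgb6 was not well above background. The only probe of Itgb5 carried an outlier flag on both arrays and gave no usable value. With the flagged spots kept it was at 0.18 and -0.14, a mean of 0.02.

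Itga4 and Itga9, the related α4 and α9 subunits, differed in opposite directions. Both pair with β1 and both bind the adhesion molecule VCAM-1. Itga9 (chromosome 9, 118747480 to 118747539, plus strand, its only probe) had a log2 intensity of 7.73 in the RNA labelled KO and 6.63 in the RNA labelled WT with KO in Cy5, and of 7.59 and 6.29 with KO in Cy3. The ratios were 1.10 and 1.30 (mean 1.20), or 2.29-fold higher, and Itga9 was the called member nearest to the 2-fold line. Its level in the RNA labelled WT was close to that of probes not well above background (median 6.00, 95th percentile 6.19). With the Feature Extraction ratio it was at 2.51.

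The brightest Itga4 probe (chromosome 2, 79131372 to 79131431, plus strand) had a log2 intensity of 7.41 in the RNA labelled KO and 8.77 in the RNA labelled WT with KO in Cy5, and of 7.57 and 8.81 with KO in Cy3. Its ratios were -1.36 and -1.24, a mean of -1.30, or 40.5% of the WT level. The 3 other Itga4 probes well above background lay between -0.37 and -0.20, and the 2 remaining probes were not above background. All 6 probes were below 0, but the brightest was the only one that met the call, and with the mean over all probes (-0.40) Itga4 was not called.

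**Figure D3:**
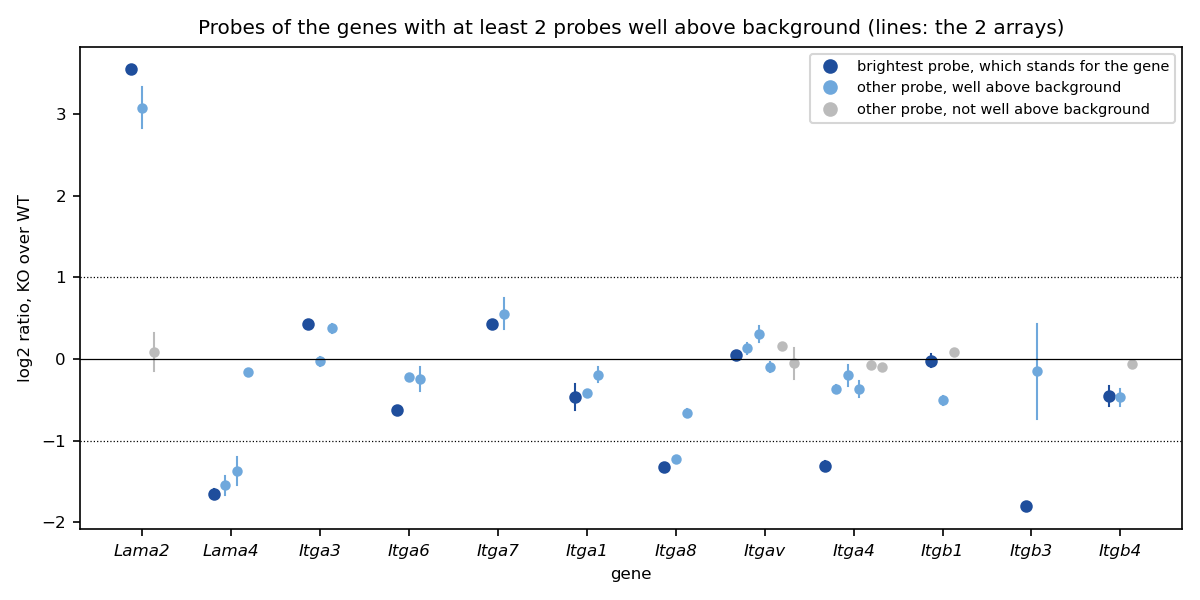
Log2 ratio of KO over WT for each probe of the genes reported here with at least 2 probes well above background, with the mean of both arrays as a point and the single arrays as the ends of a line. The probes of Lama2, Lama4 and Itga8 lie on one side of 0, apart from the Lama2 probe not above background, whose line crosses it, whereas the brightest probes of Itga4 (-1.30) and Itgb3 (-1.80) stand well below the others of their gene.

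Itgb1, the common β subunit of the laminin, collagen and fibronectin receptors, stayed near 0 at its brightest probe. This probe (chromosome 8, 131618682 to 131618741) was spotted 10 times and gave -0.09 and 0.06 (mean -0.02), with spots from -0.19 to 0.10. A second bright probe upstream, at 131608539 to 131608598, was at -0.56 and -0.45 (mean -0.50), so its probes differed by 0.49. The leukocyte integrins were dim or not detected. Itgal, Itgb2 and Itgb7 were well above background with means of -0.02, 0.08 and 0.02, and Itgae, Itgam and Itgax were not well above background on both arrays in either RNA. No probe was named Itgad.

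Ligands, receptors and adaptors that work with integrins and laminins were read from a list of 83 genes, of which 73 had a usable value and 58 were well above background. Of these 58, 6 were called higher (10.3%, against 2.95% of all genes) and 5 lower (8.62%, against 2.61%). Their median log2 ratio was -0.16. With the Feature Extraction ratio 6 were called higher and 8 lower, and with median centring 3 and 3. The calls of all genes moved as well. They were 469 higher and 414 lower as reported, 941 and 866 with the Feature Extraction ratio, and 250 and 138 with median centring.

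The basement membrane genes that join laminin differed in both directions, like the laminin α chains. Of 12 genes, 2 were higher (16.7%, against 2.95% of all genes) and 1 was lower (8.33%, against 2.61%). Col4a6, a minor chain of collagen IV, was higher with log2 ratios of 3.82 and 3.86, although its 3 probes ran from -0.21 to 3.84. Nid2, one of the nidogens that link laminin to collagen IV, was higher at 1.93 and 1.86. Agrn, the laminin-binding proteoglycan agrin, was lower at -2.14 and -2.24, with another probe at -0.21. The major chains Col4a1 and Col4a2 were not called, at -0.56 and -0.78, and Nid1 was at -0.31. None of the 6 laminin receptors outside the integrin family was called, and Dag1, which encodes dystroglycan, was at -0.32.

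Of 4 integrin ligands of the cell surface, 2 were called, both higher (50%, against 2.95% of all genes). Vcam1, the ligand of the α4 and α9 integrins, had a log2 intensity of 11.97 in the RNA labelled KO and 8.65 in the RNA labelled WT with KO in Cy5, and of 11.83 and 8.59 with KO in Cy3. It was higher at 3.31 and 3.24 (mean 3.28), or 9.69-fold, and a second probe was at 2.28. Jam2, a junctional adhesion molecule known as another ligand of the α4 integrin, was higher at 1.72 and 1.63, with a second probe at 0.40. Thus of the α subunits that bind VCAM-1, α9 was called higher at its only probe, together with the ligand. The α4 subunit was called lower, at its brightest probe alone.

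Among the matrix ligands, 2 of 12 were higher (16.7%, against 2.95% of all genes) and 2 lower (16.7%, against 2.61%). Edil3, an RGD protein bound by αv integrins, was higher at 1.22 and 1.14, and Thbs1, thrombospondin 1, at 1.26 and 1.25. Postn, periostin, was lower at -1.65 and -1.74, and Tgfbi at -1.60 and -1.58. Both are secreted proteins bound by αv integrins. Fn1, fibronectin, stayed under the call at 0.84 and 0.95.

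Inside the cell, 1 of 19 activators and adaptors was called (5.26%, against 2.61% of all genes called lower). This was Itgb3bp, lower at -1.64 and -1.78, a protein named for binding the β3 tail that is also a centromere protein. Its second probe above background was at -0.56. The 18 others were not called. They lay between -0.78 (Tln2, a talin) and 0.90 (Itgb1bp1, which binds the β1 tail), with Lims1 at -0.65 and Lims2 at 0.76, and Tln1 (-0.03) and Vcl (0.02) near 0. Of 5 tetraspanins and membrane partners, 1 was called, lower (20%, against 2.61% of all genes). This was Cd82 at -2.23 and -1.95, while Cd151, the tetraspanin bound to the laminin receptors, was at 0.65.

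**Figure D4:**
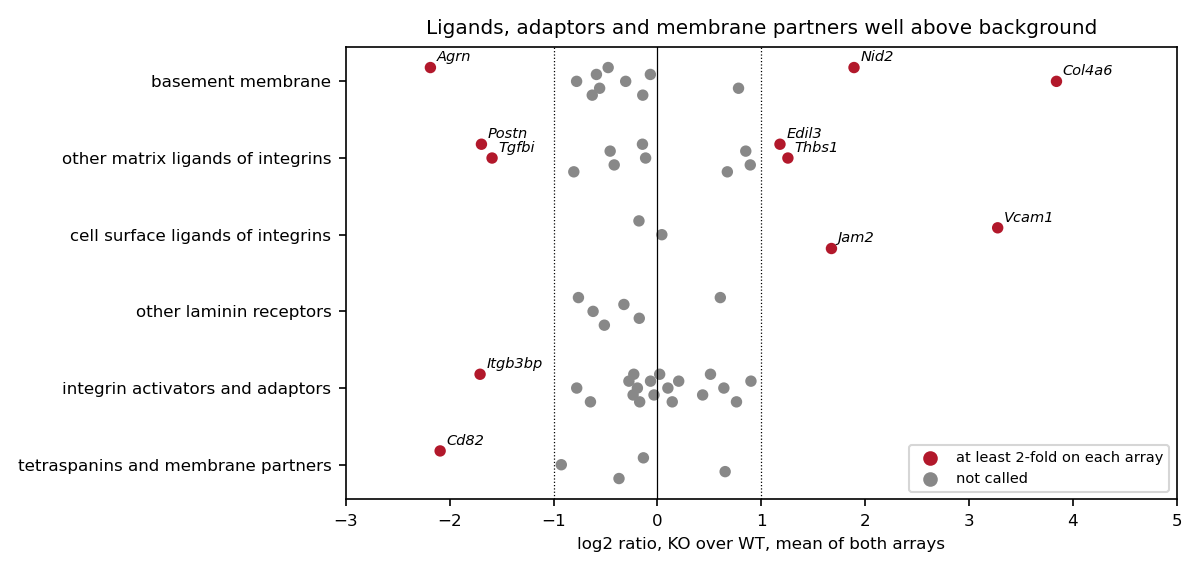
Log2 ratio of KO over WT (mean of both arrays) of the 58 adhesion partner genes well above background, by list, with called genes named in red. Calls lie on both sides of 0 among basement membrane genes and matrix ligands, both calls among cell surface ligands (Vcam1, Jam2) lie to the right, and the adaptors spread from -0.78 to 0.90 apart from Itgb3bp at -1.71.

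Markers of other cell types that carry these receptors were read beside the members, since fewer cells of a type and less RNA per cell cannot be told apart in bulk RNA. Lama4, Itga8 and Itgb3 were lower together with Cnn1 (-2.11), a smooth muscle marker. Of the other smooth muscle markers, Acta2 was at 0.79, Tagln at 0.13 and Myh11 at -0.46, and Des was not well above background. The summed intensity of the 5 smooth muscle markers was 48839 and 47545 in the RNA labelled KO and 40637 and 38845 in the RNA labelled WT, and their part in the member ratios was not tested. None of 6 endothelial markers and none of 4 skeletal muscle markers was well above background in either RNA. The platelet markers Gp1ba and Gp9 were not well above background, while the chemokine gene Ppbp, also on the list, was so in the RNA labelled KO only and was the 1 marker of any list called higher, at least 2.39-fold (log2 ratios of 1.23 and 1.39, the bound being set by the lowest signal well above background or the WT signal of the probe, whichever was higher). The platelet sums were 307 and 272 against 206 and 187. The summed intensity of the Schwann and neural markers was 1319 and 1264 in the RNA labelled KO against 1342 and 1384 in the RNA labelled WT. Ptprc and Emr1 of 6 leukocyte markers were not well above background, the 4 others were dim, and the sums were 498 and 486 against 490 and 481. Krt8, Krt18, Cdh1 and Cldn4 of 6 epithelial markers were not well above background, and the sums were 439 and 453 against 459 and 464.

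**Figure D5:**
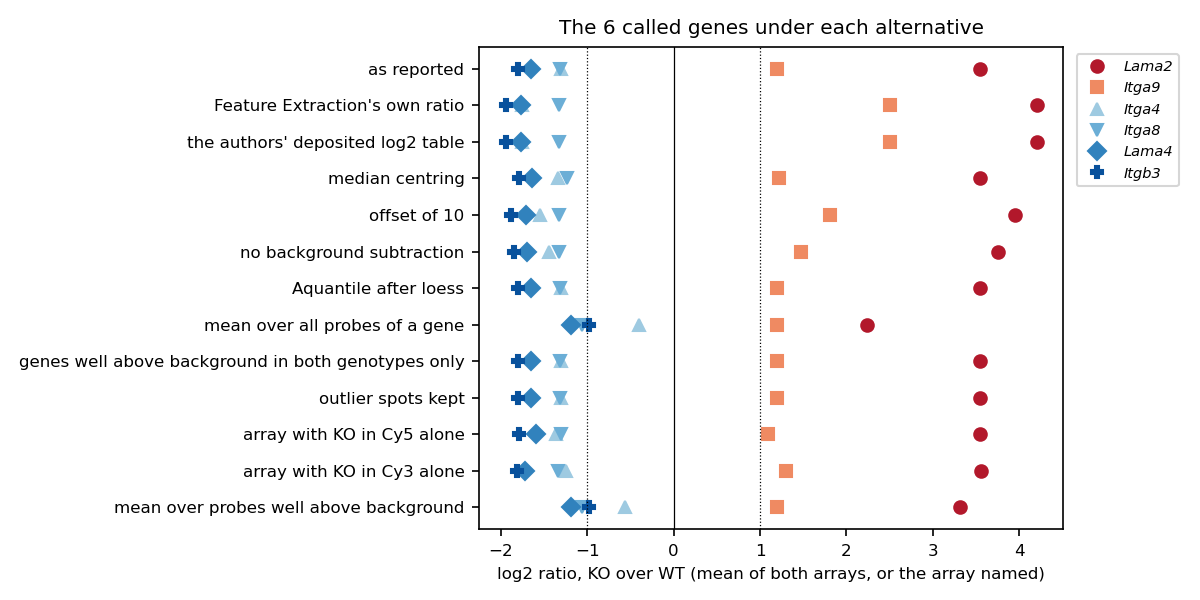
Log2 ratio of the 6 called genes under each alternative way of processing, with the value as reported in the first row and the 2-fold lines dotted. Each gene keeps its side of 0 in each row; Itga4 and Itgb3 come inside the 2-fold line when all probes of the gene are averaged, and Itga9 moves from 1.20 to 2.51 with the Feature Extraction ratio.

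Across the alternatives all 6 called members kept their direction. For the single arrays this was fixed beforehand, since the call asks for the same sign on both, and some other alternatives change no ratio. The calls of Lama2, Itga9 and Itgb3 also held with median centring in place of the loess normalisation, where Lama4, Itga8 and Itga4 fell short on the array with KO in Cy5 (-0.79, -0.29 and -0.86) while their means stayed at -1.64, -1.23 and -1.34.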

How the data were processed

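Total RNA of the RNAs labelled KO and WT was hybridised to 2 Agilent 2-colour arrays with the dyes exchanged. Per the file headers, spots were read with Agilent Feature Extraction 10.5.1.1, and the authors deposited mean signals and local background medians as intensity in arbitrary units, with flags. The deposited files also hold a log10 ratio (Cy5 over Cy3) that the software computed. The authors' value table holds log2 ratios, which equalled KO over WT from the processed signals on both arrays, with column medians of -0.0177 and 0.0367.

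From the intensities, background was corrected by the normexp method of limma 3.58.1 (R 4.3.3) with an offset of 50, which draws dim ratios towards 0, and each array was normalised by loess, control and outlier spots having weight 0. Outlier spots (390 and 378 of 43379) were then left out, spots of a probe averaged, and the second array turned in sign. Channel levels were taken after loess and Aquantile. A probe spotted repeatedly counted as well above background when a share of 0.5 or more of its spots had the software's flag. The median signal was 96.8 and 98.5 units in Cy5 and 60.1 and 58.2 in Cy3, and with 2 arrays their number limits the precision. Sums of markers are of normalised intensities on the linear scale.

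All genes matching the names were analysed and counted, and the values of some members and markers are not reported here. Values are given for called members, for those beyond 2 times the SD of a single probe, for those whose probes differ by over 1 log2 unit, and for called partners. A few further partners and markers were picked after their values were seen. The members, the lists and the call rule were chosen with earlier results of these data known. All 35 names are symbols of a reference table (GRCm38.p6, used for names), and 48 of 78 probe accessions matched it. The calling was tested on simulated data with planted differences larger in size than the ratios of Itga9, Itga4 and Itga8, so that test does not cover calls of their size. Python 3.11.15 with pandas 2.3.3, numpy 2.4.6, scipy 1.17.1 and matplotlib 3.10.9 was used. Alternatives were other ratios, normalisations, offsets, probe rules, single arrays and tests.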

Additional observations from a re-analysis of the deposited data

How the results depend on the processing

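No paired analysis was possible because the labels give each dye orientation 1 array and no biological replicate. Of 288 recomputed ratios of single members, 231 moved by less than the SD between the arrays (0.137), 38 became larger by more than that and 19 smaller, and no called member changed sign. The other 11 changes of sign started from ratios of at most 0.176 in size. A called member could not change sign on a single array, since the call asks for the same sign on both. Some alternatives could not move a ratio. Aquantile leaves ratios as they are, and keeping only genes well above background in both genotypes changes no value. Keeping the outlier spots changed almost none. The Feature Extraction ratio and the authors' table held nearly the same values and were counted separately. The count of 231 is thus no measure of stability. The count of members called lower, 4 as reported, was 1 with median centring, which leaves an intensity-dependent dye effect on each array, 2 with the mean over all probes and 2 with the mean over probes well above background (chosen after the data were seen). The lower calls of all genes, 414 as reported, also fell under these settings, to 138, 307 and 344 in the same order. The methods' t-test at 2-fold left 1 member higher and 4 lower with an unadjusted p under 0.05, and 0 and 0 after Benjamini-Hochberg adjustment, and limma with that adjustment left 2 and 4. These tests compare hybridisations, not genotypes, and how many of all genes passed them was not counted. The median of the integrins, -0.10, was -0.27 with the Feature Extraction ratio and the authors' table, and that of the laminins, -0.23, was -0.031 with Lamb1-1 (added later). Partners called lower numbered 8 with the Feature Extraction ratio and the authors' table in place of 5, and markers called lower 2 in place of 1. The lower calls of all genes numbered 866 with each of these, in place of 414. With median centring, 3 partners were called higher and 3 lower, beside 250 and 138 of all genes. Over all genes, 53.1% of the calls were higher, and 64.4% with median centring. The other 59 of 74 recomputed counts and medians stayed within 1.5 times, or within the SD, and they include the same alternatives that could not move a ratio. Ratios of probes near background are drawn towards 0 by the offset, so that small differences of dim genes such as the leukocyte integrins could not be resolved.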
